A study of Homo sapiens with 4 samples.

Results

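The sestrins, DDIT4 and other brakes on mTORC1, the kinase complex that drives protein synthesis when amino acids and growth signals are plentiful, were followed in A549 cells that expressed FCN3 from a virus. The group holds 10 of the 25192 genes in the deposited tables. SESN1, SESN2, SESN3, DDIT4, DDIT4L, DEPTOR, AKT1S1, TSC1 and TSC2 were taken for their known function as inhibitors of mTORC1. FAM129A, also named Niban or NIBAN1, was added because of its large rise in these libraries, so its change is described here without a test. A549 is an established human lung adenocarcinoma cell line. Of the 4 RNA-seq libraries, 2 came from cells given a control empty virus (EV) and 2 from cells given the same vector with FCN3, a secreted lectin of the complement system, with RNA extracted 48 h after infection. Both viruses also express GFP, and the FCN3 insert carries a V5 tag. The labels do not say whether the libraries of a group came from independent cultures, so p-values measure the spread between these libraries, which may be technical. With so few libraries, that spread is estimated in part across genes.

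mTORC1 sits on the lysosome, where Rag GTPases recruit it when amino acids are present and the small GTPase Rheb switches it on. Sestrins bind the GATOR2 complex and so keep the Rag GTPases from recruiting the kinase, with SESN2 acting as a sensor of leucine. DDIT4 (also called REDD1) and its relative DDIT4L act through TSC1 and TSC2, the complex that switches Rheb off. DEPTOR and AKT1S1 (PRAS40) bind mTORC1 itself. SESN2 and DDIT4 are known as genes induced by stress, among others through the transcription factor ATF4, while SESN3 is known as a target of FOXO factors.

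The 4 libraries held between 16353554 and 35733735 expected counts, with more reads in replicate 1 than in replicate 2 of either group. FCN3 had 1 and 0 expected counts in the EV libraries. In the FCN3 libraries it took 2.06% and 2.23% of the counts, or 4.16% and 4.47% of all TPM (transcripts per 1000000, a level corrected for gene length). Of 10 markers of blood, endothelial, fibroblast and muscle cells, between 6 and 8 were at or under 3 counts in each library, and the list summed to 3.55 and 8.55 TPM in the EV libraries against 2.86 and 8.21 TPM in the FCN3 libraries. CD3E, PECAM1 and DCN were at 0 in all 4 libraries, and COL1A1 had the most counts of this list in each. The keratin-led list of epithelial markers summed to between 3635 and 5259 TPM, with the lung lineage genes NKX2-1 and SFTPC too low to be tested. Of its 5 tested genes 3 were higher and 2 lower. At a false discovery rate (FDR) of 0.01 none was called by edgeR without a block, and all 5 were called with a replicate block, by which libraries of the same number are compared (36.2% of all tested genes were called in that fit). DESeq2 called KRT19 alone, beside 7.86% of all its genes. KRT19 had the largest log2 fold change of those above a log2 CPM of 1 (1.24, DESeq2 adjusted p = 2.8e-06 and edgeR adjusted p = 0.040). The 2 lower genes were EPCAM, just under that level (-1.12, edgeR adjusted p = 0.12), and CDH1 (-0.53 with overlapping groups, edgeR adjusted p = 0.45). Levels within a gene are given below as CPM (counts per 1000000 after TMM normalization) and levels between genes as TPM. In such bulk samples, a change in the mix of cells and a change in RNA per cell cannot be told apart.

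SESN2 carried the largest change among the 9 genes chosen by function. SESN2 occupies positions 28586029 to 28609002 of chromosome 1 on GRCh37 (plus strand). Its level was 14.3 and 13.9 CPM in EV replicates 1 and 2 and 75.1 and 61.3 CPM in FCN3 replicates 1 and 2, from expected counts of 521, 233, 2546 and 1219. Both FCN3 libraries lay far above both EV libraries, which nearly coincided. The group means were 14.1 ± 0.267 and 68.2 ± 9.74 CPM (SD, n = 2 in each group). The fitted change was 4.83-fold (2.27 ± 0.14 on the log2 scale, fit and standard error, with an edgeR adjusted p of 0.0030 over all 14099 genes tested), larger than the spread between replicates. Between libraries of the same replicate number the log2 ratio was 2.39 for replicate 1 and 2.14 for replicate 2.

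DDIT4 was the most abundant of the 10 genes in both groups and was higher in both FCN3 libraries. Its locus spans positions 74033678 to 74035794 of chromosome 10 (plus strand). Its level was 124 and 163 CPM in EV replicates 1 and 2, against 226 and 241 CPM in FCN3 replicates 1 and 2. The groups did not overlap, but the EV libraries stood further apart than the FCN3 libraries, at 143 ± 28.0 CPM (SD, n = 2) against 233 ± 10.7 CPM (SD, n = 2). The log2 fold change was 0.71 (1.63-fold, standard error 0.15, adjusted p = 0.051 in edgeR), which did not pass the threshold of 0.01. In both groups replicate 2 was the higher library, and the log2 ratio was 0.87 in the replicate 1 pair and 0.56 in the replicate 2 pair. A replicate block in the same fit gave a log2 fold change of 0.72 (standard error 0.056, edgeR adjusted p = 7.9e-16). With so few libraries, that small p rests mostly on a variance estimate shared across genes, not on the spread of DDIT4 alone. DESeq2 without a block gave an adjusted p of 0.00028, and edgeR without EV replicate 2 gave a log2 fold change of 0.91 (adjusted p = 0.0075). Without any 1 of the other 3 libraries DDIT4 did not pass, with edgeR adjusted p from 0.055 to 0.11.

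FAM129A encodes a stress-responsive cytoplasmic protein that has been tied to the phosphorylation of eIF2alpha and of the S6 kinase, and it is not an established inhibitor of mTORC1 like the other 9. Its locus spans positions 184759858 to 184943640 of chromosome 1 (minus strand). Its level was 1.78 and 1.79 CPM in the EV libraries, from 65 and 30 expected counts, and 84.9 and 70.8 CPM in FCN3 replicates 1 and 2, from 2880 and 1408. The fitted fold change was 43.5 (log2 fold change 5.44, standard error 0.17), with log2 ratios of 5.57 and 5.30 in the replicate 1 and replicate 2 pairs. These are the values that led to its choice, and its rise ranked at 8 of the 14099 genes. Per length, it was at 0.48 TPM in both EV libraries and at 21.2 and 18.0 TPM in the FCN3 libraries, a level between those of TSC2 and SESN1. FAM129B, the relative of FAM129A named here after its values were seen, was far more abundant and nearly level, at 327 and 293 CPM in the EV libraries and 344 and 289 CPM in FCN3 cells (log2 fold change 0.03, standard error 0.12, edgeR adjusted p = 0.90). FAM129C had 3 or 4 expected counts in each library.

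**Figure D1:**
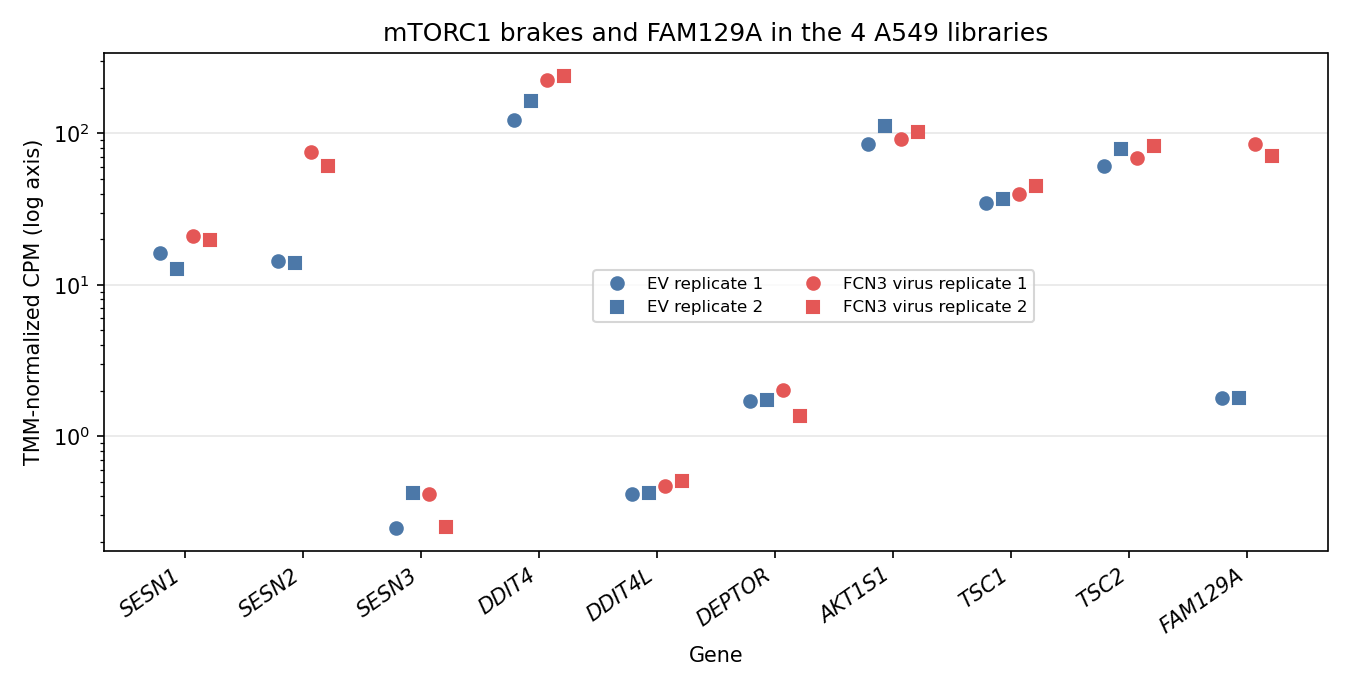
Level of each of the 10 genes in TMM-normalized CPM on a log axis. Each point is 1 library, blue for EV and red for the FCN3 virus, circles for replicate 1 and squares for replicate 2. FAM129A went from about 1.8 to between 70.8 and 84.9 CPM and SESN2 from about 14 to between 61.3 and 75.1 CPM, while the points of DEPTOR, AKT1S1 and TSC2 overlapped between groups.

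Windows of 300 bases around the RefSeq transcription starts (250 before and 50 from the start, GRCh38.p14) were found for 8 of the 10 genes, 11 windows in all. Those of the 3 genes with the largest fold changes are shown first, since all 3 were higher in both FCN3 libraries, and the first window of TSC2 is shown because it alone held the ATF4-type motif. Capitals mark motif matches on either strand. The windows are chr1:28259268-28259567 (plus strand) for SESN2, chr10:72273674-72273973 (plus strand) for DDIT4, chr1:184974459-184974758 (minus strand) for FAM129A and chr16:2047735-2048034 (plus strand) for TSC2.
SESN2: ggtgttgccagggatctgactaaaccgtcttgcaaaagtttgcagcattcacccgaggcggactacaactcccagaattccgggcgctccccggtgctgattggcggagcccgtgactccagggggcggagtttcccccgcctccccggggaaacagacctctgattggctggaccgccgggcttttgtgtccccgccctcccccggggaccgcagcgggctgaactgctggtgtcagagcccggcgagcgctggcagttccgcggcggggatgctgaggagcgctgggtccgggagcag
DDIT4: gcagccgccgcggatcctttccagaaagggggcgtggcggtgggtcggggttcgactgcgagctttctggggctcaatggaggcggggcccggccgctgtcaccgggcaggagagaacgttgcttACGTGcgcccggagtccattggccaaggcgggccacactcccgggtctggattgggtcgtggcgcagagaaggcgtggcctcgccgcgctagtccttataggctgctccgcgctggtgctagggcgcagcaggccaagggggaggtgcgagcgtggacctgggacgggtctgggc
FAM129A: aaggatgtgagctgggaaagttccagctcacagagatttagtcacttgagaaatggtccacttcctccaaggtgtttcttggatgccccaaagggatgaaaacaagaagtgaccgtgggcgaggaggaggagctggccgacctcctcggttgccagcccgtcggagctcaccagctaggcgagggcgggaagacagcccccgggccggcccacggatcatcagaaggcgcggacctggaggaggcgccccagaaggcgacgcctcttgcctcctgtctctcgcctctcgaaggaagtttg
TSC2: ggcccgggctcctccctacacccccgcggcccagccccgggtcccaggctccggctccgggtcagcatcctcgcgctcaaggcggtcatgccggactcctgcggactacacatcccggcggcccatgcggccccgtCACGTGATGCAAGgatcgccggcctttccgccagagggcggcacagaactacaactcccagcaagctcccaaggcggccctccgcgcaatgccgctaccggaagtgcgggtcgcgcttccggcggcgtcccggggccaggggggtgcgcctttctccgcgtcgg
Both strands were searched for the C/EBP-ATF composite element bound by ATF4 (TGATGNAAN), the ER stress element and the unfolded protein response element (TGACGTGG). The core of the hypoxia response element (ACGTG), a FOXO site (TGTTTAC) and a pair of p53 half-sites were searched in the same way. The C/EBP-ATF element was in 3.61% of the 35116 windows of all genes, and among the windows of these 8 genes it was found only in the first window of TSC2, as TGATGCAAG from position -110 counted from the start. The hypoxia core was in 21.4% of all windows. It was found in DDIT4 at position -125 and in the same window of TSC2 at 2 positions, -114 and -113, where the matches overlap each other and the C/EBP-ATF element. The ER stress element (0.0769% of all windows), the unfolded protein response element (0.729%), the FOXO site (3.42%) and the pair of p53 half-sites (0.0285%) were not found in these 11 windows. SESN2 and FAM129A thus held none of these letters in this stretch, which says nothing of sites farther away.

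SESN1, a sestrin gene at positions 109305512 to 109416049 of chromosome 6 (minus strand), was at 16.2 and 12.7 CPM in EV replicates 1 and 2 and at 21.1 and 19.7 CPM in FCN3 replicates 1 and 2. The groups did not overlap, and the difference of 14.5 ± 2.47 and 20.4 ± 1.01 CPM (SD, n = 2 in each group) was a log2 fold change of 0.48 (standard error 0.16, edgeR adjusted p = 0.14). With a replicate block it was 0.49 and passed the threshold (edgeR adjusted p = 3.1e-05). DESeq2 gave an adjusted p of 0.18. The RSEM gene length, a mean over the 3 annotated SESN1 transcripts weighted by their estimated abundance, was 2760 and 2750 bases in the EV libraries and 2738 and 2727 bases with the FCN3 virus.

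SESN3, at positions 94898677 to 94965705 of chromosome 11 (minus strand), was near the limit of detection. Its expected counts were 9 and 7 in EV replicates 1 and 2 and 14 and 5 in FCN3 replicates 1 and 2. The groups overlapped, the log2 ratio was 0.74 in the replicate 1 pair and -0.73 in the replicate 2 pair, and a difference was not detectable at this depth (log2 fold change 0.21, standard error 0.57, edgeR adjusted p = 0.86). Its log2 fold change was 0.49 without EV replicate 2 and 0.44 without FCN3 replicate 2, the gene falling under the filter without either replicate 1 library, and its sign turned negative in limma on TPM.

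Together the 3 sestrins summed to 19.5 and 16.9 TPM in the EV libraries and to 51.9 and 44.7 TPM with the FCN3 virus. In EV cells SESN1 made up 58.8% and 53% of the sestrin TPM and SESN2 40.0% and 44.5%. With the FCN3 virus SESN2 made up 72.5% and 69.9% and SESN1 26.7% and 29.5%. The order of these family members was therefore SESN1 above SESN2 in both EV libraries and SESN2 above SESN1 in both FCN3 libraries, with SESN3 lowest in all 4.

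**Figure D2:**
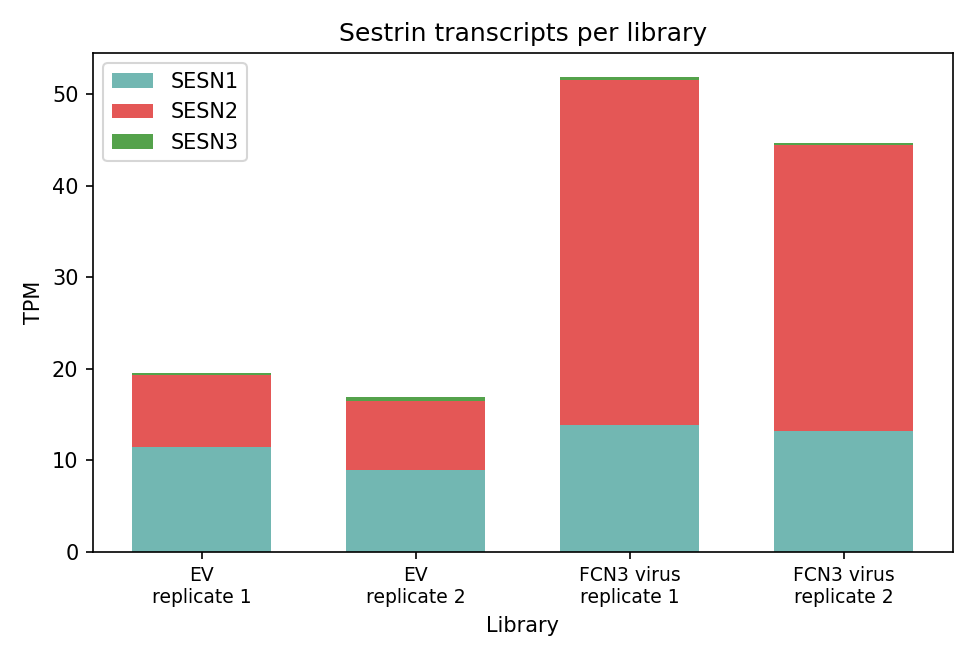
TPM of SESN1, SESN2 and SESN3 stacked for each library, from 0. The stack stood at 19.5 and 16.9 TPM in the EV libraries and at 51.9 and 44.7 TPM with the FCN3 virus, and the SESN2 segment made up most of the increase.

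DDIT4L, the relative of DDIT4 at positions 101107027 to 101111939 of chromosome 4 (minus strand), was close to silent. It had 15 and 7 expected counts in EV replicates 1 and 2 and 16 and 10 in FCN3 replicates 1 and 2, or 0.31 TPM in both EV libraries and 0.32 and 0.35 TPM with the FCN3 virus. Although the CPM values of the groups did not overlap, the log2 fold change of 0.22 was smaller than its standard error of 0.44 (edgeR adjusted p = 0.80). DDIT4 was at 143 and 187 TPM in the EV libraries against 240 and 261 TPM in the FCN3 libraries.

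TSC1 and TSC2 encode the scaffold and the GTPase-activating subunit of the complex that switches Rheb off. TSC1, at positions 135766735 to 135822261 of chromosome 9 (minus strand), was at 34.8 and 37.2 CPM in the EV libraries and 40.1 and 45.2 CPM in the FCN3 libraries. The groups did not overlap, and the log2 fold change was 0.24 (standard error 0.11, edgeR adjusted p = 0.24, and 0.0040 with a replicate block). It went to 0.16 when FCN3 replicate 2 was left out (edgeR adjusted p = 0.74). TSC2, at positions 2097968 to 2139492 of chromosome 16 (plus strand), was at 60.7 and 79.0 CPM in EV replicates 1 and 2 and 68.8 and 82.2 CPM in FCN3 replicates 1 and 2. Here the gap between replicates was larger than the gap between groups, and the log2 fold change of 0.12 (standard error 0.16, edgeR adjusted p = 0.71) did not pass the threshold with the block either (adjusted p = 0.096 in edgeR). TSC2 shares 784 of its 20527 exonic bases with PKD1 on the opposite strand, and TSC1 shares 349 of 17600 with GFI1B. AKT1S1 shares 151 of its 5737 with TBC1D17 on the opposite strand. The strand setting of the counting is not stated, so that reads in these stretches could belong to either gene.

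The mTORC1-bound inhibitors AKT1S1 and DEPTOR gave log2 fold changes near 0. AKT1S1, at positions 50372290 to 50381716 of chromosome 19 (minus strand), was at 85.5 and 112 CPM in EV replicates 1 and 2 and at 91.4 and 103 CPM in FCN3 replicates 1 and 2. The FCN3 libraries lay between the EV libraries (log2 fold change -0.02, standard error 0.15, edgeR adjusted p = 0.96), and the sign turned without EV replicate 2 or FCN3 replicate 1. DEPTOR, at positions 120885957 to 121063157 of chromosome 8 (plus strand), had 62 and 29 expected counts in EV replicates 1 and 2, against 68 and 27 in FCN3 replicates 1 and 2. It was at 1.70 and 1.73 CPM in the EV libraries, with 2 and 1.36 CPM to either side of them in FCN3 replicates 1 and 2 (log2 fold change 0.03, standard error 0.31, edgeR adjusted p = 0.97). Its sign turned in DESeq2, in limma on TPM and without FCN3 replicate 1.

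**Figure D3:**
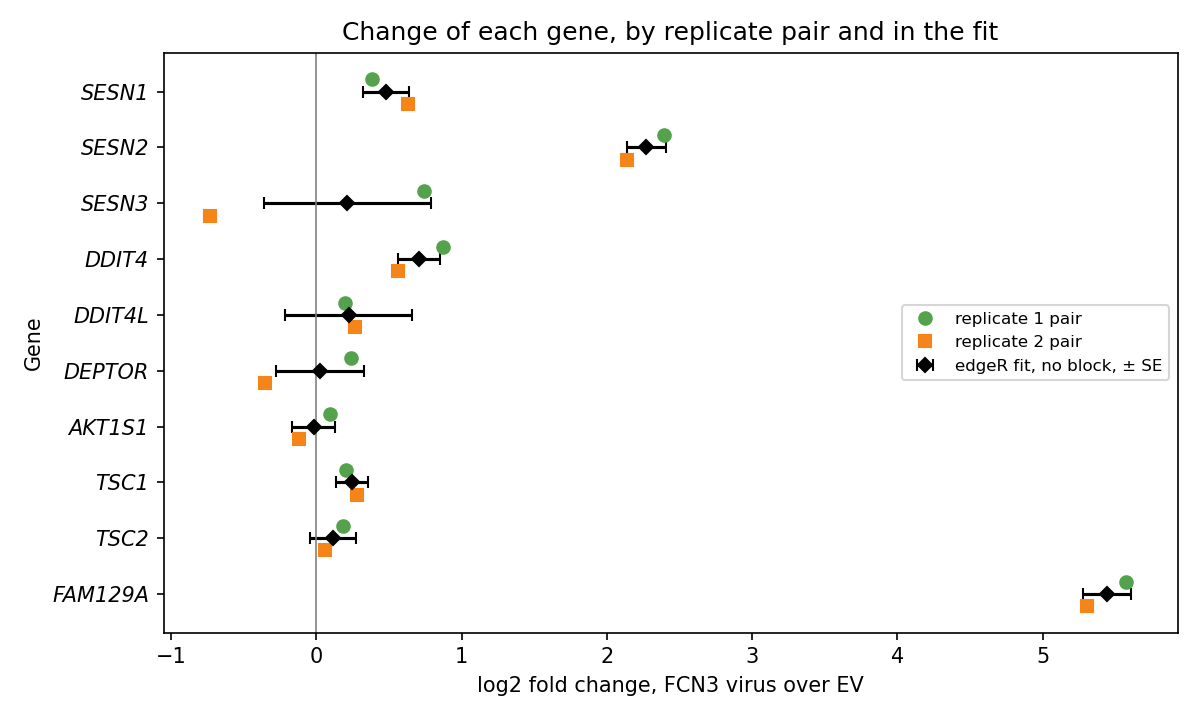
Log2 fold change of the FCN3 virus over EV for each gene. Green circles and orange squares are the ratios of the replicate 1 and replicate 2 libraries, and black diamonds with bars are the edgeR fit without a block and its standard error. Both pairs lay to the right of 0 for FAM129A, SESN2, DDIT4, SESN1, TSC1, TSC2 and DDIT4L, and on opposite sides of 0 for SESN3, DEPTOR and AKT1S1.

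All 10 genes passed the filter on low counts. Of the 9 chosen by function, SESN2 alone was called at an FDR of 0.01 without the block, where 0.738% of all tested genes were called higher with the FCN3 virus and 0.227% lower. With the block, SESN1, SESN2, DDIT4 and TSC1 were called higher and none lower, beside 19.1% of all tested genes called higher and 17.1% lower, and DESeq2 called SESN2 and DDIT4, beside 7.86% of its genes called in either direction. The FCN3 libraries lay above both EV libraries for 5 of the 9, against 28.0% of all tested genes. The median log2 fold change was 0.22 over the 9 and 0.02 over all tested genes.

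By level, DDIT4 stood first and AKT1S1 second in both groups. In EV cells, TSC2 (21.0 and 27.2 TPM), SESN1 (11.5 and 8.96 TPM), TSC1 (7.56 and 7.99 TPM) and SESN2 (7.80 and 7.53 TPM) followed, of which TSC1 and SESN2 did not differ beyond the spread of their libraries. Below them were DEPTOR (1.27 and 1.28 TPM), FAM129A, and SESN3 and DDIT4L, whose ranges overlapped. With the FCN3 virus SESN2 came next, at 37.7 and 31.3 TPM, above TSC2 at 21.9 and 26.7 TPM, FAM129A, SESN1 at 13.9 and 13.2 TPM and TSC1 at 8 and 9.19 TPM. Summed over the sestrins, DDIT4 and DDIT4L, the level was 163 and 205 TPM in the EV libraries and 293 and 306 TPM in the FCN3 libraries. Most of this sum was DDIT4, at 143 and 187 TPM in the EV libraries and 240 and 261 TPM in the FCN3 libraries. Its own change did not pass the threshold in edgeR without the block. The sum of DEPTOR, AKT1S1, TSC1 and TSC2 was 117 and 151 TPM in the EV libraries against 118 and 137 TPM in the FCN3 libraries. Most of it was AKT1S1, at 87.2 and 115 TPM against 86.9 and 100 TPM. The 2 sums thus mostly follow these single genes. TPM adds up to a fixed total, of which FCN3 took 4.16% and 4.47% in the FCN3 libraries, so the TPM of other genes is lowered there.

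The genes with the most similar pattern were found by the distance between log2 CPM values, centred on each gene's mean over the 4 libraries. The nearest to SESN2 were TGM4, at under 1 CPM in each library, SEL1L, a core part of ER-associated degradation, and FICD, an enzyme that modifies the ER chaperone HSPA5. SEL1L was at 136 and 120 CPM in the EV libraries against 670 and 518 CPM in the FCN3 libraries. The nearest to DDIT4 were FDFT1, which encodes squalene synthase (116 and 149 CPM against 202 and 220 CPM), and the weakly expressed LOC100507501 and LOC653501. The nearest to FAM129A were CDH15, DDIT3 and DERL3, with distances of 0.36, 1.07 and 1.52 on the log2 scale, against 0.09 to 0.20 for SESN2 and 0.047 to 0.049 for DDIT4. CDH15 was at only 0.11 and 0.060 CPM in the EV libraries, near or under the floor of 3 counts, and DERL3 at 0.25 and 0.30 CPM. With 4 libraries such distances mainly restate the change between groups and between replicate numbers.

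The rest of the mTORC1 pathway was taken as 7 lists of 77 genes, of which 76 could be tested. None was called by edgeR at an FDR of 0.01 without the block, which called 0.965% of all tested genes. An unadjusted p under 0.05 was found for 18 of the 76 (23.7%), against 25.1% of all tested genes. DESeq2 called 6 (7.89%), beside 7.86% of its genes called in either direction. Limma on log2(TPM + 1) called 0 of the 76, and 105 of all tested genes. With the block, edgeR called 30 of the 76 (39.5%), 19 higher and 11 lower, against 36.2% of all tested genes called in either direction. The median log2 fold change of the 76 genes was 0.08, from -0.70 to 0.84.

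Within this pathway, the list of mTORC1 substrates had 10 of 14 genes called with the block, 6 higher and 4 lower, beside 36.2% of all tested genes called in that fit. DESeq2 called 4 genes of this list, all higher, beside 7.86% of its genes. EIF4EBP1, the repressor of cap-dependent translation that mTORC1 inactivates and a known ATF4 target, was at 77.7 and 87.0 CPM in the EV libraries and 137 and 158 CPM in FCN3 cells (log2 fold change 0.84, edgeR adjusted p = 0.018). ATG13, a subunit of the autophagy-starting ULK1 kinase complex, was at 65.8 and 67.4 CPM against 114 and 108 CPM (0.74, edgeR adjusted p = 0.013). GRB10, an adaptor that dampens insulin signalling, was at 96.5 and 90.0 CPM against 161 and 142 CPM (0.70, edgeR adjusted p = 0.021). In each of the 3 genes the groups were apart by more than the spread between replicates, and each was called with the block (edgeR adjusted p from 1.7e-18 to 1.2e-15). The 4 called lower with the block were the S6 kinases RPS6KB1 and RPS6KB2, EIF4EBP2, a relative of EIF4EBP1, and PATL1. Their log2 fold changes were -0.20, -0.25, -0.29 and -0.20.

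AMPK restrains mTORC1 when energy is low, and the list of its subunits and upstream kinases had 4 of 8 tested genes called higher with the block and none lower, beside 19.1% and 17.1% of all tested genes. PRKAB2, a beta subunit, was at 19.0 and 22.9 CPM in EV cells and 31.9 and 40.6 CPM in FCN3 cells (log2 fold change 0.80, edgeR adjusted p = 0.055, and 3.9e-12 with the block). The gamma subunits PRKAG2 and PRKAG1 had log2 fold changes of 0.50 and 0.34 (edgeR adjusted p = 0.045 and 0.10). In the PI3K and AKT list of 16 genes, 5 were called higher and 3 lower with the block, against the same 19.1% and 17.1%. IRS1, which couples the insulin receptor to PI3K, was at 116 and 88.5 CPM in EV replicates 1 and 2 and at 70.1 and 55.8 CPM in FCN3 replicates 1 and 2 (log2 fold change -0.70, edgeR adjusted p = 1.2e-14 with the block, 0.077 without it). PHLPP1, a phosphatase of AKT, had a log2 fold change of -0.51 and PIK3IP1, an inhibitor of PI3K, one of 0.78 with overlapping groups.

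For the remaining lists the share called with the block was below the 36.2% of all tested genes. Among the 7 mTORC1 and mTORC2 subunits only RICTOR, the defining subunit of mTORC2, was called with the block, at 38.5 and 33.2 CPM in EV cells and 49.4 and 46.6 CPM in FCN3 cells (log2 fold change 0.42). PRR5L and PRR5, both bound to mTORC2, had log2 fold changes of 0.37 and -0.25. Of 15 Rag and Ragulator activators, 2 were called higher and 2 lower with the block. FNIP1, a partner of folliculin, had a log2 fold change of 0.48, SLC38A9, the lysosomal arginine sensor, one of 0.35 and RRAGD one of 0.48 with overlapping groups. Of 8 genes of the GATOR1, KICSTOR and TSC complexes, 2 were called lower with the block, with KPTN, a KICSTOR subunit, at 14.4 and 15.5 CPM in EV cells and 10.2 and 9.95 CPM with the FCN3 virus (-0.56), ITFG2 at -0.30 and DEPDC5 at -0.33. Of 8 GATOR2 genes and amino acid sensors, SEC13 was called higher with the block (0.30). SEC13 also serves the COPII coat and the nuclear pore. CASTOR1, listed as GATSL3, and BMT2, listed as C7orf60, had log2 fold changes of -0.37 and 0.22 with overlapping groups.

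**Figure D4:**
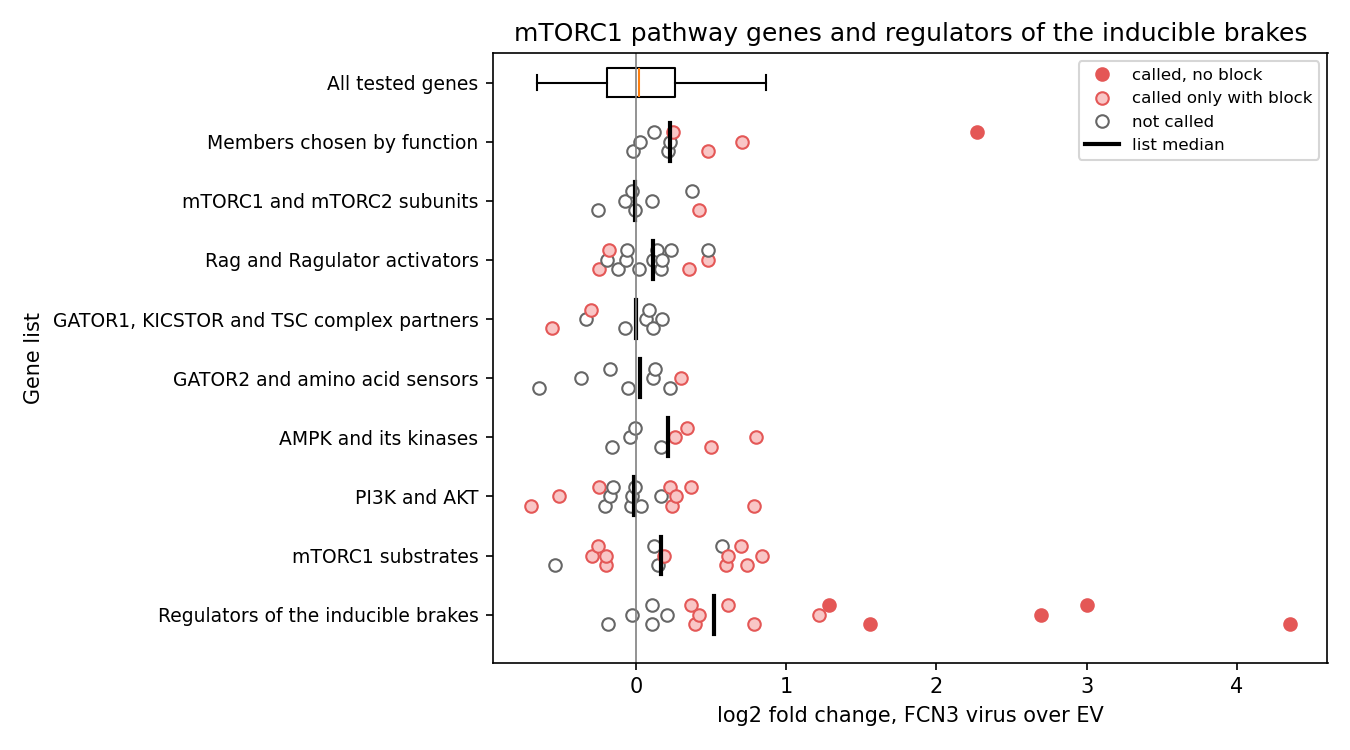
Log2 fold change of each tested gene of the pathway lists, of the list headed regulators of the inducible brakes and of the 9 genes chosen by function. List medians are black bars. Filled points were called by edgeR without the block, pale points with the block only and open points in neither fit, and the box of all tested genes has whiskers at the 5th and 95th percentiles. Filled points were seen only for SESN2 and for 5 genes of the regulator list, while the medians of the 7 pathway lists lay between -0.02 and 0.21.

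A further list, headed regulators of the inducible brakes, held 16 genes, of which 14 were higher, beside 7316 of all 14099 tested genes. Not all of its genes are established regulators of the sestrins or DDIT4, CDKN1A for example. Without the block edgeR called 5, all higher, beside 0.738% of all tested genes called higher, and DESeq2 called 8, all higher, beside 7.86% of its genes called in either direction. With the block 11 were called, all higher, beside 19.1% of all tested genes. This list was written with earlier results of these data known, and it is not independent evidence of a direction. The genes called by edgeR without the block were DDIT3, ATF3, TRIB3, CEBPG and XBP1, with log2 fold changes of 4.35, 3, 2.70, 1.28 and 1.55. ATF3, a stress-induced transcription factor, was at 3.48 and 5.79 CPM in EV cells and 35 and 35.5 CPM with the FCN3 virus (edgeR adjusted p = 0.0050). CEBPG, which pairs with ATF4 on C/EBP-ATF elements, was at 91.5 and 89.9 CPM against 210 and 232 CPM (edgeR adjusted p = 0.0035). Of genes named after their values were seen, MDM2, an E3 ubiquitin ligase, was at 168 and 116 CPM in EV replicates 1 and 2 and 360 and 304 CPM in FCN3 cells (log2 fold change 1.22, edgeR adjusted p = 0.028, and 1.5e-25 with the block). The transcript of HIF1A had a log2 fold change of -0.03 (edgeR adjusted p = 0.85), and that of FOXO3 0.37 (edgeR adjusted p = 0.20, and 0.00044 with the block).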

How the data were processed

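RNA from A549 cells was sequenced in 4 libraries, 2 per group. Per the study's methods and the submitters' processing notes, the authors trimmed reads, aligned them to hg19 with STAR 2.6.1d and estimated abundance with RSEM on RefSeq transcripts, as the identifiers in the tables show. The deposited files give an expected count, TPM and FPKM per gene. The expected counts are not normalized and the authors' TPM and FPKM are scaled by RSEM for length and depth. FPKM was not used. The files also hold RSEM lengths in bases.

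Expected counts were rounded and compared with edgeR 4.0.16 in R 4.3.3 (TMM, filterByExpr, quasi-likelihood test, Benjamini-Hochberg over 14099 genes, FDR 0.01). A standard error is the size of the log2 fold change over the square root of the F statistic. In the fit with the replicate block, p-values and standard errors rest mostly on variance shared across genes. Very small p-values from that fit are therefore not strong evidence from single genes. Alternatives used DESeq2 1.42.0, limma 3.58.1 on TPM, RLE factors, other filters, FCN3 left out, an effective-length offset, a replicate block, an FDR of 0.05 and each library left out. With 2 libraries against 2, an exact permutation test cannot go below 0.333. Intervals were not given, and the floor of 3 counts (0.084 to 0.183 CPM) covers counting error only. The tests were also tried on counts simulated with the same random spread for every gene, which these libraries need not share. No result here rests on that trial.

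The members and lists were chosen with earlier results of these data known. Named were all members, each list's called genes or else its 3 largest changes (among genes averaging 1 or more in log2 CPM), and the 3 nearest genes by pattern. Further genes, EPCAM and the mTORC1 substrates called lower with the block among them, were named after their values were seen. Gene locations are from GENCODE on GRCh37, matched through RefSeq accessions. Promoter windows are from RefSeq on GRCh38.p14, and their coordinates were not mixed with the others. Some listed or overlapping genes are not reported here by name, although the counts over lists include them.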

Additional observations from a re-analysis of the deposited data

How the results depend on the processing

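SESN2 kept its direction and stayed past the threshold in all 13 alternative fits, with log2 fold changes from 2.03 to 2.41. DDIT4 ran from 0.53 to 0.91 and SESN1 from 0.33 to 0.69 in the 13 fits, higher in each. The count of called genes, 136, went to 1047 with DESeq2, 5103 with the replicate block and 1014 at an FDR of 0.05, and to between 92 and 267 with 1 library left out, the highest without EV replicate 2. Among the 9 genes chosen by function, 1 was called, against 2 with DESeq2, 4 with the replicate block and 1 to 2 with 1 library left out. Of the pathway lists 0 genes were called, against 6 with DESeq2, 30 with the block, 5 at an FDR of 0.05 and 0 with any 1 library left out. The cause of these differences was not tested.

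Signs turned only in genes that were not called. AKT1S1 ran from -0.19 to 0.18, TSC2 from -0.058 to 0.31 and DEPTOR from -0.34 to 0.23 with 1 library left out. Without a sign change, TSC1 ran from 0.16 to 0.33 and SESN3, in the 2 such fits that kept it, from 0.44 to 0.49. DEPTOR was at -0.031 in DESeq2, and in limma at -0.085 on log2(TPM + 1) and -0.15 on log2(TPM + 0.1), where SESN3 was at -0.026 and -0.079. The median log2 fold change of all genes was itself -0.072 and -0.087 in these limma fits, against 0.016 in the main fit. FCN3 took 4.16% and 4.47% of all TPM in the FCN3 libraries, which lowers the TPM of the other genes there. How much of the shift this makes was not tested. FAM129A was at 3.79 and 5.08 in these limma fits, in which the pseudocount lowers the change of a gene with a low EV level. Leaving out 1 library leaves 1 library in a group, which is then assumed to vary like the other group.

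The labels number the replicates alike but do not say what a number stands for, and 2 pairs are too few to settle the pairing. Across 8310 genes with an average log2 CPM over 4, the difference between replicates 1 and 2 in EV correlated with that in FCN3 (Pearson's r = 0.806, across genes, which are not independent replicates). The depth limits SESN3 and DDIT4L, with at most 16 expected counts in any library.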
